A study of Oryctolagus cuniculus with 6 samples.

Results

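Cytokine, chemokine, interferon and MHC genes were taken from the rabbit array by their descriptions. Every non-control probe whose description held the word interleukin, chemokine, interferon or toll-like receptor, or the terms MHC class or histocompatibility, was included, in any letter case, together with CXCL8. This gave 139 genes from 290 of 43603 non-control probes. Each gene was represented by its probe with the highest mean intensity over the 6 arrays. Of the 139 genes, 86 had a representative probe well above background, by the scanner software's flag, in at least 3 of the 12 channel measurements and entered the tests.

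Cytokines are secreted proteins that carry signals between cells through surface receptors. Chemokines are the cytokines that direct cell movement, and interferons induce antiviral genes through the JAK and STAT proteins. Toll-like receptors detect microbial molecules, and MHC proteins present peptides to T cells. In early pregnancy such molecules take part in the exchange between the embryo and the uterus, and the rabbit blastocyst is still unattached at this age.

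The samples were blastocysts of New Zealand White rabbits at 6 days of age. Vitrified embryos had been cooled in liquid nitrogen after a last step in 20% DMSO and 20% ethylene glycol, and frozen embryos had been cooled slowly after reaching 1.5 M DMSO. Both kinds were then placed in recipient females and recovered as viable embryos, while control embryos were untreated, so the cryopreservation and the transfer cannot be told apart. On each of the 6 arrays a treated extract was hybridised with a control extract, and each treatment had 3 replicate arrays. Red marked the treated RNA in replicates 1 and 3, and green marked it in replicate 2. Per the labels, the vitrified and the frozen array of a replicate number used a common control extract. The labels call the replicates biological without naming the animals, so p-values measure the spread between these samples. Ratios are treated over control on the log2 scale, SE is the standard error of the limma fit with n = 3 arrays per treatment, and adjusted p is Benjamini-Hochberg over all 30767 tested probes. In whole-embryo RNA, fewer cells of a type and less RNA per cell cannot be told apart.

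The share of spots well above background was 44.7% to 58.0% in green and 64.2% to 74.5% in red. No array had more than 11 saturated spots, and 2 slides held 3 arrays each. One slide held replicate 1 of vitrified and replicates 1 and 2 of frozen embryos, and the other held the rest. The difference between the treatments is thus partly confounded with the slide.

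Many of the genes were not measured above background in the blastocyst. The representative probe was well above background in all 12 channels for 40 of the 139 genes (28.8%), in 1 to 11 channels for 59, and in none for another 40 (28.8%). Among all non-control probes 43.7% were well above background in all channels and 22.2% in none. Counting every probe of a gene, 37 genes had no channel above background. In the control channels alone, 41 genes were well above background in 6 of 6 and 47 in 0 of 6.

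Detection was counted by role. Of 35 interleukins and other interleukin-named genes, 6 were detected in every channel and 16 in none. The genes with no channel on any probe included the inflammatory ligand IL1B, as well as IL2, IL7, IL10, IL13, IL18, IL21, IL22 and IL33. IL1A and IL12A had none on the representative probe and 1 channel on another probe. IL6, a ligand of the STAT3 pathway, was detected in 1 channel, and IL4 and IL5, ligands of type 2 immunity, in 2 channels each. Of 30 interleukin receptors and receptor-linked genes, 11 were detected in every channel and 5 in none. The 11 included IL4R, IL6R, IL10RA, IL10RB and IL13RA1, so receptor chains for IL4, IL6, IL10 and IL13 were measured where those ligands were at or near background. IL6ST, the signal-transducing chain shared by the IL6 family, was also detected in 12 of 12 channels.

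Chemokines and their receptors showed the same mixture. CXCL8, which attracts neutrophils, and its receptors CXCR1 and CXCR2 were detected in 12 of 12 channels. CCL2, which attracts monocytes, was detected in 9 channels and its receptor CCR2 in 4. CCL5, which attracts T cells, was detected in none, as were the receptors CCR8, CCR9, CMKLR1 and CX3CR1. CXCR4, the receptor of CXCL12, was detected in every channel.

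For the interferon system, no alpha interferon probe was detected in any channel. IFNG, the type II interferon, was detected in 10 of 12 channels on 1 probe and in 0 on its other probe. IFNGR1, a receptor chain for IFNG, was detected in 12 channels, IFNAR1, a receptor chain for type I interferons, in 6, and IFNLR1, the specific receptor chain for the lambda interferons, in 12. Among the interferon regulatory factors, IRF7 was detected in every channel, IRF1 in 1, and IRF2 and IRF4 in none. Of 14 interferon-induced or interferon-named genes, 5 were detected in all channels and IFI35, IFIT3 and a GBP1-like gene in none. Toll-like receptors 4, 6 and 10 were detected in no channel, and TLR2 and TLR3 in 6 channels each.

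Among the 14 MHC and MHC-named genes, 7 were detected in every channel. They included the class I genes RLA-A3 and LOC100349757, and LOC100342808, annotated only as MHC class I-like A1. The class II gene LOC100341358, annotated as DP beta, and both RLA-DM chains, which load peptides onto class II molecules, were also among them. HM13, a peptidase of the endoplasmic reticulum named for a minor histocompatibility antigen, completed the 7. The class II chains RLA-DR-ALPHA and LOC100349667, annotated as DR beta, were detected in 9 and 11 channels. No probes of different MHC genes shared a run of more than 11 bases.

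**Figure D1:**
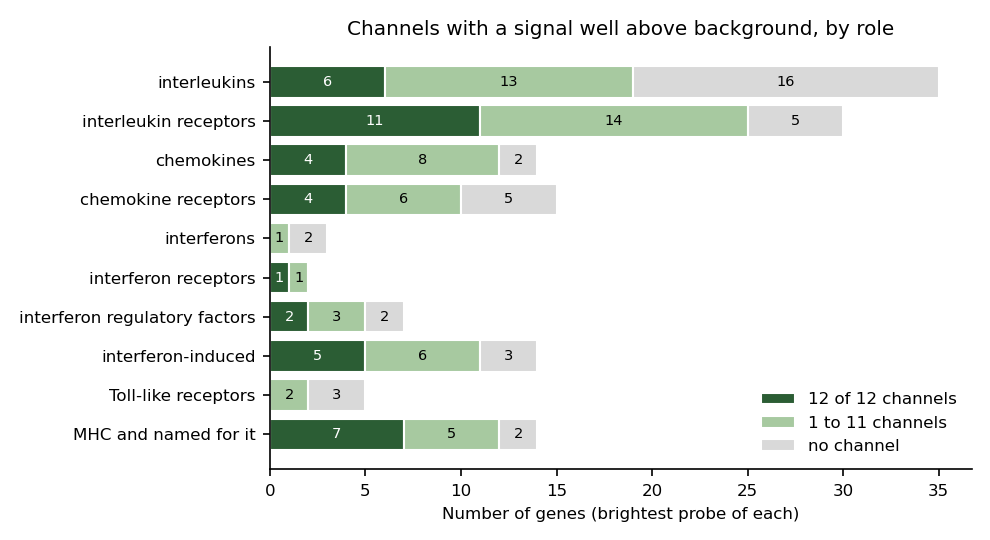
Number of genes (horizontal axis) in each role group whose representative probe was well above background in all 12 channel measurements, in 1 to 11, or in none. Interleukins had 16 of 35 genes with no channel, interleukin receptors 5 of 30.

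Detection near the limit followed the dye. Of the 59 genes detected in 1 to 11 channels, 56 were detected in more red than green channels, 3 in as many and 0 in more green. On each array the red channel detected more of the genes than the green. Vitrified embryos gave 90, 60 and 87 detected genes in replicates 1, 2 and 3, against 67, 86 and 41 in the control channels of the same arrays. Frozen embryos gave 85, 48 and 80, against 62, 77 and 50. A treated channel held fewer detected genes than its control only in replicate 2, where the treated sample was in green.

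Whether a gene counted as detected also depended on where its probe lay. Of 54 genes with more than 1 probe, 13 had a probe well above background in at least 3 channels and another in none. For CXCL8, 3 probes starting at bases 222 to 224 of the transcript were detected in 12 of 12 channels, the pair starting at 274 and 275 in 0 or 1, and the probes starting at 1291 and 1351 in 0. The detected probe used here and the one starting at base 274 are printed to show how close they lie, with the 9 bases they share in capitals.

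CXCL8, starting at base 223: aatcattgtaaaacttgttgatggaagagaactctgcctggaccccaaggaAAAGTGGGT
CXCL8, starting at base 274: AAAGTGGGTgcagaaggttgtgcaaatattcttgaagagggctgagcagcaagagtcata

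The array files place them on the minus strand at chr15:76370624-76370952 and chr15:76370125-76370632, by coordinates whose genome build is not given in the sources used here. The 60 bases of each span 329 and 508 genomic bases, so by these coordinates both cross an intron. For IL1RN, the secreted antagonist of the IL1 receptor, the probes starting at 1528 and 1548 were detected in 12 and 10 channels and the one at 177 in 0. The array labels these probes IL1R1, and the gene table names their accession IL1RN. For CCL2, the probes starting at 506 and 526 were detected in 9 and 8 channels and those at 486 and 547 in 0. For IL15, a ligand that sustains natural killer cells, probes of identical sequence starting at 415 were detected in 0 and 3 channels, and the probe at 521 in 6. Detection of a gene thus rests on the probe that stands for it.

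**Figure D2:**
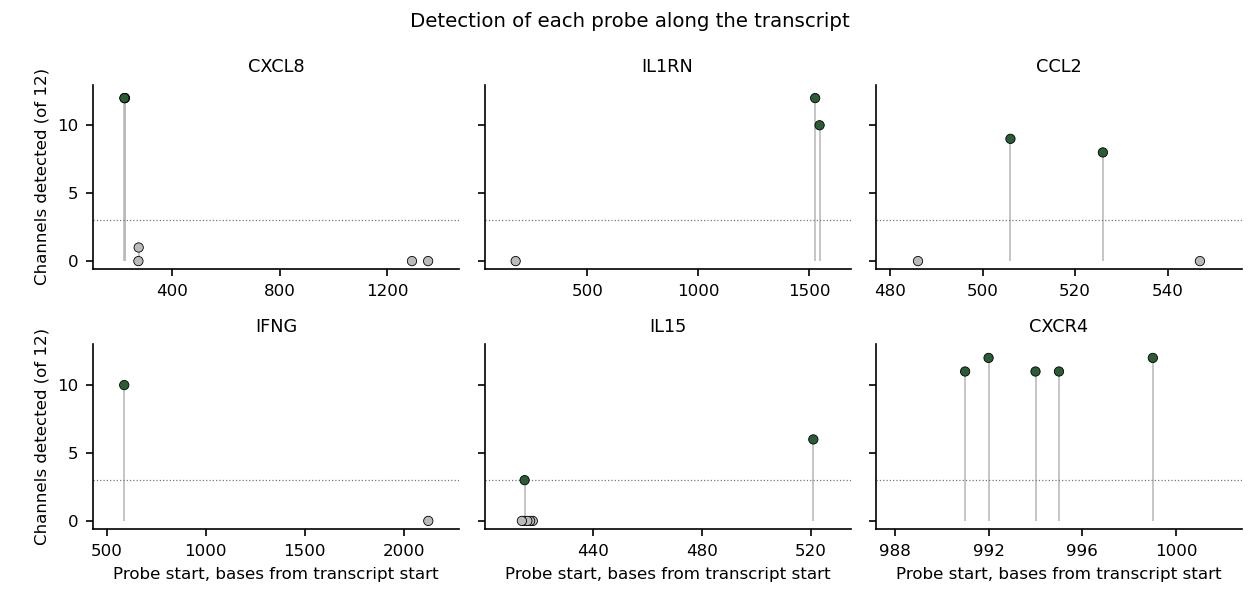
Number of channels of 12 in which each probe was well above background (vertical axis) against the probe's start in the transcript in bases (horizontal axis), for 6 genes. The dotted line marks the minimum of 3 channels for testing. CXCL8, IL1RN, CCL2 and IFNG each had probes above and below it, while all 5 CXCR4 probes were above it.

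The first comparison asked how vitrified and transferred embryos differed from untreated ones. No tested gene of the 86 passed the adjusted threshold of 0.05 in limma, where 6 of all tested probes (0.0195%) did, and the smallest adjusted p of a member was 0.178. At an unadjusted p under 0.05, 5 members were higher (5.81%, against 9.98% of all probes) and 4 lower (4.65%, against 7.39%). With array quality weights, 5 members passed the adjusted threshold, among 11.6% of all tested probes. The fitted values of the 86 genes had a median of +0.04, against +0.01 for all probes, and 52 (60.5%) were above 0, against 51.3%. The median absolute value was 0.107 against 0.128, and 82 of the 86 lay within the central 90% of all probes.

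IRF7, here LOC100358763, is a transcription factor that drives type I interferon genes. Its representative probe, the member with the smallest adjusted p in this comparison, starts at base 1257 of the transcript.

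IRF7: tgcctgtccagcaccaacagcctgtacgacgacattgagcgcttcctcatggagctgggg

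Its log2 ratios were 0.67, 0.33 and 0.30 on the vitrified arrays and 0.11, 0.16 and 0.20 on the frozen arrays. All 6 were above 0, and the vitrified arrays did not overlap the frozen ones. The fitted values were 0.42 ± 0.11 for vitrified embryos (SE, n = 3, limma adjusted p = 0.178) and 0.14 ± 0.11 for frozen embryos (adjusted p = 0.633). The control signals of IRF7 lay between 11.24 and 11.57 on the log2 scale, well above background in every channel. With array quality weights the vitrified value was 0.37 with an adjusted p of 0.0248. The alpha interferon probes, whose genes IRF7 is known to drive, stayed at background in every channel.

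Among ligands and their antagonists, CXCL8 had log2 ratios of 0.29, 0.43 and 0.05 on the vitrified arrays and -0.32, 0.16 and 0.09 on the frozen arrays. The vitrified arrays were all above 0, and the ranges of the treatments overlapped. The fitted value was 0.30 ± 0.11 in vitrified embryos (SE, n = 3, limma adjusted p = 0.25). The 3 tested CXCL8 probes, which overlap and are not separate measurements, lay between 0.21 and 0.30. IL1RN was at 0.43, 0.09 and 0.24 on the vitrified arrays and at -0.03, 0.22 and 0.12 on the frozen arrays. The vitrified values of IL1RN were above 0 on all 3 arrays, and the fitted value was 0.25 ± 0.11 (limma adjusted p = 0.296), or 0.42 without the second vitrified array. Its other tested probe was at -0.19 on that array and was fitted at 0.08. Of the ligands that IL1RN opposes, IL1B was not above background in any channel on any probe, and IL1A was above it in 1 channel on 1 of its 4 probes.

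CCL2 was at 0.22, 0.17 and 0.13 on the vitrified arrays and at -0.01, -0.00 and -0.04 on the frozen arrays. On this probe the treatments did not overlap, and the frozen values of CCL2 lay close to 0. The other tested CCL2 probe was at 0.17, 0.10 and 0.34 on the vitrified arrays. On the frozen arrays it was at 0.16, -0.08 and 0.03, so on it the treatments overlapped. The fitted difference of vitrified from frozen was 0.19 ± 0.12 (SE, limma adjusted p = 0.768). CX3CL1, a membrane-bound chemokine, was at -0.24, -0.03 and -0.01 on the vitrified arrays, all below 0, with a fitted value of -0.06 ± 0.10 (limma adjusted p = 0.786). ILF2, an RNA-binding protein named for the IL2 enhancer, was at 0.41, 0.27 and 0.05 on the vitrified arrays. The 5 ILF2 probes, which overlap and are not separate measurements, were fitted between 0.21 and 0.29.

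Of the receptors, IL1R1, the signalling receptor for IL1, was at 0.42, 0.27 and 0.23 on the vitrified arrays and at -0.21, 0.50 and 0.17 on the frozen arrays. All vitrified values were above 0, and the frozen arrays spread over both sides of it. The fitted value in vitrified embryos was 0.34 ± 0.13 (SE, n = 3, limma adjusted p = 0.249), or 0.58 without the second vitrified array. IL6R, the ligand-binding chain for IL6, was at 0.27, 0.17 and 0.25 on the vitrified arrays, with a fitted value of 0.21 ± 0.09 (limma adjusted p = 0.291). IL6ST, its partner chain, was at -0.81, -0.07 and 0.11 on the same arrays, so its 3 arrays did not share a direction.

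Among receptors, IFNLR1 and CXCR4 were below control at an unadjusted p under 0.05 in both treatments. The IFNLR1 probe, described on the array by its older name of interleukin 28 receptor, lies on the plus strand at chr13:129197868-129197927. The CXCR4 probe lies on the minus strand at chr7:73686595-73686654, and the capitals mark the 52 bases it shares with the neighbouring probe that starts closest to the transcript's start. Both sequences are shown because these probes were below 0 on all 6 arrays.

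IFNLR1: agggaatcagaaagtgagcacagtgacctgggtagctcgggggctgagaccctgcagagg
CXCR4: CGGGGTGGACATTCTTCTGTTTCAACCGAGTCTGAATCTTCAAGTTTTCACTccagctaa

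The log2 ratios of IFNLR1 were -0.69, -0.23 and -0.63 on the vitrified arrays and -0.56, -0.41 and -0.12 on the frozen arrays. Every array was below 0, and the treatments overlapped. The fitted values were -0.49 ± 0.13 in vitrified embryos (SE, n = 3, limma adjusted p = 0.185) and -0.33 ± 0.13 in frozen embryos (adjusted p = 0.327), the latter -0.13 without the second frozen array. CXCR4 was at -0.26, -0.19 and -0.36 on the vitrified arrays and at -0.18, -0.41 and -0.38 on the frozen arrays. The ranges overlapped and this probe was below 0 on every array. Its fitted values were -0.27 ± 0.10 (limma adjusted p = 0.239) in vitrified and -0.32 ± 0.10 (adjusted p = 0.232) in frozen embryos. All 5 CXCR4 probes were below 0 in both treatments, between -0.28 and -0.13 in vitrified and between -0.33 and -0.25 in frozen embryos, and since they overlap they are not separate measurements. On single arrays they reached 0.23, for the probe starting at base 994 on the third vitrified array. Both treatments were compared with the same control extracts, so their shared direction is not independent evidence.

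Outside the receptors, NMI and TMED5 had the lower values in vitrified embryos at an unadjusted p under 0.05. NMI, an interferon-induced partner of MYC and STAT proteins, was at -0.31, -0.13 and -0.32 on the vitrified arrays, with a fitted value of -0.25 ± 0.11 (SE, n = 3, limma adjusted p = 0.277). Without the second vitrified array it was -0.43. Its other probe was fitted at 0.01, so the 2 probes of NMI did not share the value. TMED5, a trafficking protein that entered only through a description linking it to an IL1 receptor ligand, was at -0.93, -0.88 and 0.22 on the vitrified arrays. The third vitrified array was on the other side of 0, and without it the fitted value moved from -0.58 ± 0.21 to -0.90 (limma adjusted p = 0.0818).

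The genes of the MHC group above 0 on all 6 arrays were LOC100349667, annotated as a class II DR beta chain, and LOC100342808, annotated as MHC class I-like A1. Their probes lie on the minus strand at chr12:23151557-23151616 and chr12:140114113-140114172. The LOC100342808 probe lies far from that of the class I gene RLA-A3, at chr12:22544969-22545028, and whether LOC100342808 presents peptides was not tested. Both sequences are printed to identify which genes of the group carry the values.

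LOC100349667: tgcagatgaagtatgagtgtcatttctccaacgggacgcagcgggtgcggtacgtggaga
LOC100342808: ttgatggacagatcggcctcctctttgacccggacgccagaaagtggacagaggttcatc

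LOC100349667 was at 0.52, 0.66 and 0.11 on the vitrified arrays and at 0.47, 0.31 and 0.52 on the frozen arrays. All 6 arrays were above 0 and the treatments overlapped. Its fitted values were 0.44 ± 0.13 in vitrified (SE, n = 3, limma adjusted p = 0.192) and 0.45 ± 0.13 in frozen embryos (adjusted p = 0.205). Without the second vitrified array the vitrified value was 0.22, and without the second frozen array the frozen value was 0.67. LOC100342808 was at 0.55, 0.43 and 0.06 on the vitrified arrays and at 0.34, 0.08 and 0.29 on the frozen arrays, again all above 0 and overlapping. Its fitted values were 0.34 ± 0.12 (limma adjusted p = 0.239) and 0.23 ± 0.12 (adjusted p = 0.481), or 0.19 and 0.38 without the second array of the treatment. A second DR beta gene, LOC100350168, was at -0.05 in vitrified and -0.12 in frozen embryos, and RLA-DR-ALPHA, the partner chain of DR beta, at 0.04 and -0.03.

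**Figure D3:**
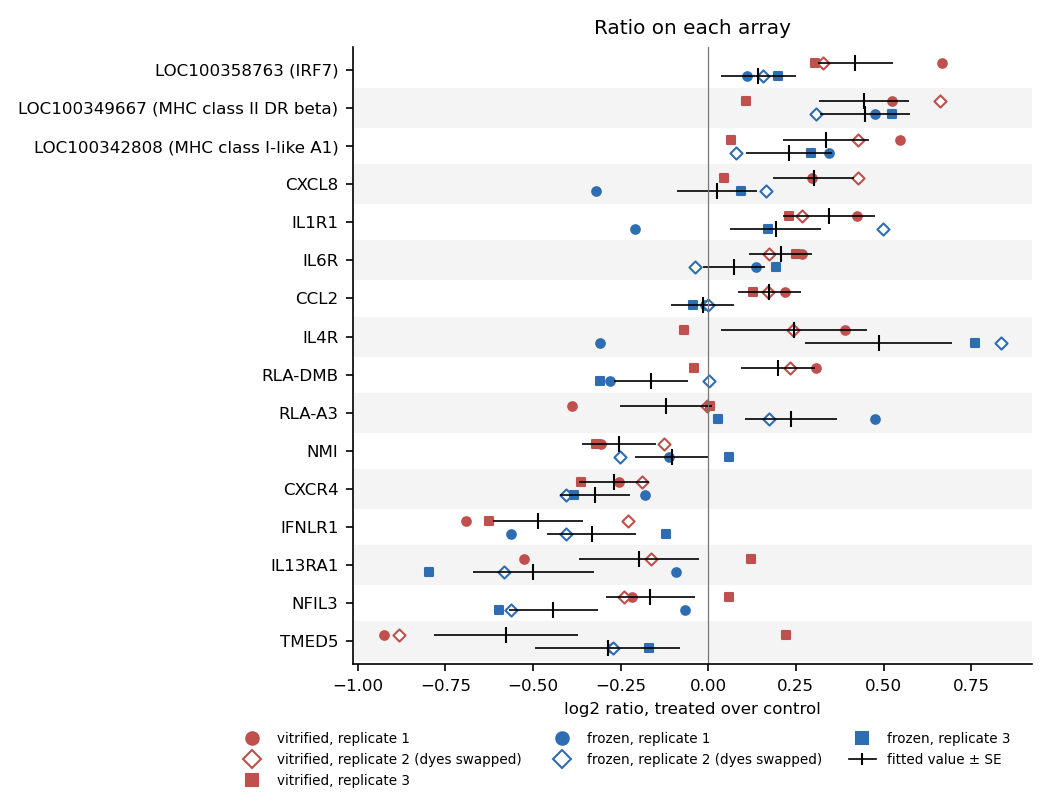
Log2 ratio of treated over control (horizontal axis) of 16 genes on each of the 3 vitrified and 3 frozen arrays, with open symbols for the arrays with swapped dyes and black bars for the fitted value ± SE. IRF7, LOC100349667 and LOC100342808 are above 0, and CXCR4 and IFNLR1 below 0, on all 6 arrays.

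The second comparison asked how slowly frozen and transferred embryos differed from untreated ones. No member of the 86 passed the adjusted threshold in limma, where 57 of all tested probes (0.185%) did, and the smallest adjusted p of a member was 0.205. At an unadjusted p under 0.05, 1 member was higher (1.16%, against 6.06% of all probes) and 4 were lower (4.65%, against 7.17%). With array quality weights, 8 members passed, among 18.1% of all tested probes. The median of the members was -0.02, against +0.01 for all probes, and was +0.03 over the members detected in all 12 channels. In all, 40 members (46.5%) were above 0, against 51.7%. Of the 86, 81 lay within the central 90% of all probes.

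The lower values in frozen embryos were led by IL13RA1, a receptor chain for IL13 that pairs with IL4R, and by NFIL3, a transcription factor regulated by IL3. The highest was IL4R, the chain shared by the IL4 and IL13 receptors. Their probes lie on the plus strand at chrX:67508107-67508166, chr1:76777379-76777438 and chr6:17560718-17560777 and are printed because these genes are described next.

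IL13RA1: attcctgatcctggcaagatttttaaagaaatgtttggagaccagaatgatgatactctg
NFIL3: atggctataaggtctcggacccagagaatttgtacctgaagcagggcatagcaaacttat
IL4R: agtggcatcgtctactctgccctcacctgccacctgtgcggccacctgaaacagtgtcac

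IL13RA1 was at -0.09, -0.58 and -0.80 on the frozen arrays and at -0.52, -0.16 and 0.12 on the vitrified arrays. The frozen arrays were all below 0, and the treatments overlapped. The fitted value in frozen embryos was -0.50 ± 0.17 (SE, n = 3, limma adjusted p = 0.28), with its 3 probes between -0.50 and -0.42. NFIL3 was at -0.07, -0.56 and -0.60 on the frozen arrays and at -0.22, -0.24 and 0.06 on the vitrified arrays. The first frozen array lay near 0 and the others well below it, as for IL13RA1. Its fitted value was -0.44 ± 0.13 (limma adjusted p = 0.208). The 5 NFIL3 probes, which overlap and are not separate measurements, lay between -0.53 and -0.43.

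IL4R was at -0.31, 0.84 and 0.76 on the frozen arrays and at 0.39, 0.24 and -0.07 on the vitrified arrays. The first frozen array was on the other side of 0 from the others. The fitted value was 0.49 ± 0.21 in frozen embryos (SE, n = 3, limma adjusted p = 0.379), and without the first frozen array it was 0.80 (adjusted p = 0.0796). The control signals of IL4R ranged from 11.84 to 12.87 on the log2 scale, a spread wider than its fitted value.

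Further members kept 1 direction on the frozen arrays. PRKRA, an activator of the antiviral kinase PKR, was at 0.33, 0.04 and 0.22 on the frozen arrays and at 0.34, 0.17 and 0.18 on the vitrified arrays. All 6 arrays were above 0, and the fitted values were 0.17 ± 0.09 (SE, limma adjusted p = 0.489) and 0.20 ± 0.09 (adjusted p = 0.316). IL10RA, the ligand-binding chain for IL10, was at 0.13, 0.13 and 0.12 on the frozen arrays, with a fitted value of 0.16 ± 0.10 (limma adjusted p = 0.567), or 0.31 without the second frozen array. CCL27, a skin-homing chemokine, was at -0.39, -0.06 and -0.52 on the frozen arrays. IL17RE, a receptor for IL17C, was at -0.01, -0.50 and -0.17, and its fitted value moved from -0.23 to +0.07 without the second frozen array. LOC100349757, a class I gene, was at -0.11, -0.21 and -0.03, while RLA-A3, another class I gene, was at 0.48, 0.17 and 0.03.

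Across the members, 21 of 86 (24.4%) were above 0 on all 3 vitrified arrays, against 20.4% of all probes, and 5 (5.81%) were below, against 16.9%. On the frozen arrays 6 (6.98%) were above 0 on all 3, against 15.7%, and 11 (12.8%) below, against 14.7%.

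The third comparison was the difference between the treatments. No member and no other probe (0.0%) passed the adjusted threshold in limma, and the smallest adjusted p of a member was 0.648. At an unadjusted p under 0.05, 1 member was higher in vitrified embryos (1.16%, against 4.06% of all probes) and 0 were lower (against 3.48%). With array quality weights, 0 members and 1132 of all probes (3.68%) passed. The members' median difference was +0.06, against +0.02 for all probes, and 56 members (65.1%) were above 0, against 53.3%. All 3 vitrified arrays were above all 3 frozen arrays for 3 members (3.49%, against 5.75%), namely CCL2, IRF7 and CCR2, the last with its frozen controls at background, and below them for RLA-A3 (1.16%, against 4.87%).

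RLA-DMB, the beta chain of the class II peptide-loading molecule, was the member with the smallest p for the difference. Its log2 ratios were 0.31, 0.23 and -0.04 on the vitrified arrays and -0.28, 0.00 and -0.31 on the frozen arrays. The groups overlapped by the third vitrified and the second frozen array. The difference was 0.36 ± 0.15 (SE, limma unadjusted p = 0.0388, adjusted p = 0.648), and its 5 probes gave differences between 0.25 and 0.41. Apart from the one starting at base 960, these probes overlap and are not separate measurements. RLA-DMA, the alpha chain of the same molecule, differed by 0.00 ± 0.13 (limma adjusted p = 0.997).

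RLA-A3 was at -0.39, -0.01 and 0.00 on the vitrified arrays, and its difference was -0.36 ± 0.18 (SE, limma adjusted p = 0.697), or -0.20 without the first frozen array. CKLF, a chemokine-like factor, was at 0.10, -0.13 and -0.54 on the vitrified arrays and at 0.11, 0.87 and -0.21 on the frozen arrays. The groups overlapped widely, with the second frozen and the third vitrified array farthest apart. The difference was -0.45 ± 0.24 (SE, limma adjusted p = 0.71), or -0.17 without the second and -0.71 without the first vitrified array. LOC100338822, a class I gene, was at -0.23, 0.39 and 0.02 on the vitrified arrays and at 0.72, 0.24 and -0.09 on the frozen arrays, with no order between the groups.

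The chemokine receptors had 1 direction in this comparison, as did the 2 tested Toll-like receptors and the 2 tested interferon receptors. All 9 tested chemokine receptors had a fitted value higher in vitrified than in frozen embryos, with a median difference of +0.17 and a range from 0.05 to 0.30. In vitrified embryos 7 of 9 were above 0 with a median of +0.12, and in frozen embryos 7 of 9 were below 0 with a median of -0.10. For CCR2, CCR10 and XCR1 the control channel was not well above background on any frozen array. The treated channel was on 1 of 3 frozen arrays for CCR2 and on 2 for CCR10 and XCR1. Their frozen values, and the differences that use them, thus rest on a control signal at background. ACKR3, a scavenging receptor for CXCL12, had the largest difference, 0.30 ± 0.20 (limma adjusted p = 0.775), and its ratios followed the dye. Without the second array of either treatment the ACKR3 difference was -0.0004. No chemokine receptor passed the test in any of the 3 comparisons.

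The other groups lay nearer 0. The 23 tested interleukin receptors and receptor-linked genes had medians of +0.08 in vitrified and +0.01 in frozen embryos, with 15 and 12 above 0. The 15 interleukins had medians of +0.00 and -0.04, and the 9 chemokines -0.01 and -0.02. The 10 interferon-induced genes had medians of +0.02 and +0.03, and the 11 MHC genes +0.07 and +0.06, with 8 and 7 above 0.

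**Figure D4:**
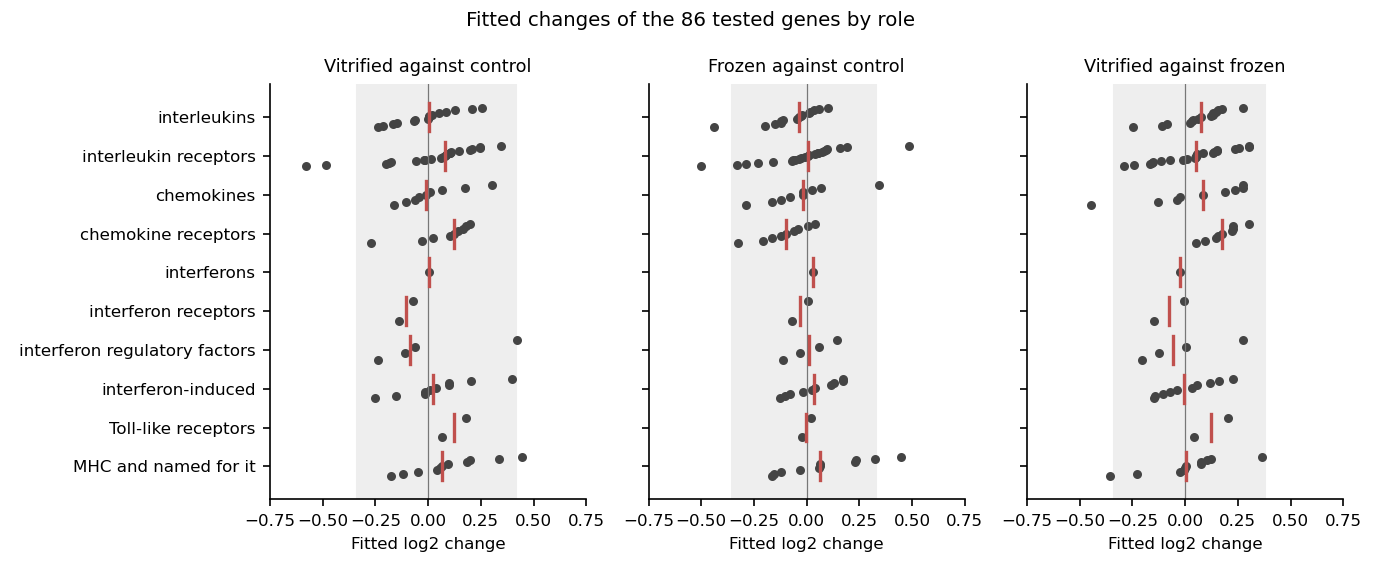
Fitted log2 change (horizontal axis) of the 86 tested genes by role for vitrified against control, frozen against control and vitrified against frozen, with a point per gene and a red line at the group median. Grey bands hold the central 90% of all tested probes. Nearly all genes lie inside the band, and all 9 chemokine receptors lie above 0 in the difference.

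On their representative probes most of the remaining named genes had small values in both treatments. IFNG was at 0.01 ± 0.11 in vitrified and 0.03 ± 0.11 in frozen embryos (SE, limma adjusted p = 0.988 and 0.948). IFNGR1 was at -0.14 and 0.01, and IFNAR1 at -0.07 and -0.07. The 3 IFNGR1 probes were fitted between -0.34 and -0.14 in vitrified and between -0.13 and 0.01 in frozen embryos. The viral RNA sensor IFIH1 was at -0.15 and -0.08, and an Mx-1 gene, whose family blocks viral replication, at -0.01 and 0.13. LOC100008867, an interferon responsive gene, had control signals between 14.18 and 14.37 on the log2 scale and fitted values of -0.01 ± 0.15 and 0.03 ± 0.15. IL15 was at 0.05 and 0.02, and IL17A, an inflammatory ligand of T cells, at -0.15 and -0.04. An IFIT1-like gene, LOC100342321, was at 0.12, 0.94 and -0.03 on the vitrified arrays, so that 1 array set its fitted value of 0.40 ± 0.18 (limma adjusted p = 0.311). Its control channel was not well above background on any of these arrays, and vitrified embryos were at least 1.05-fold higher when the control is held at the lowest measurable signal.

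Several members had ratios that changed sign with the dye. On the 4 arrays with the treated sample in red, 8 of 86 members (9.3%, against 7.48% of all probes) were above 0 while both swapped arrays were below 0. They were ACKR3, CCR1, CXCR5, IL9, IL12RB2, TLR2, TLR3 and LOC100350168, and 7 of the 8 were not detected in every channel. TLR3, a sensor of double-stranded RNA, was at 0.56 and 0.96 on the unswapped vitrified arrays and at -0.47 on the swapped one. Its frozen ratios were 0.41 and 0.46 unswapped and -0.42 swapped. The fit with a dye term put TLR3 at 0.18 ± 0.12 in vitrified and -0.02 ± 0.12 in frozen embryos (SE, limma adjusted p = 0.465 and 0.96). The opposite pattern was found for IL1F10 and IL36G (2.33%, against 2.31% of all probes).

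**Figure D5:**
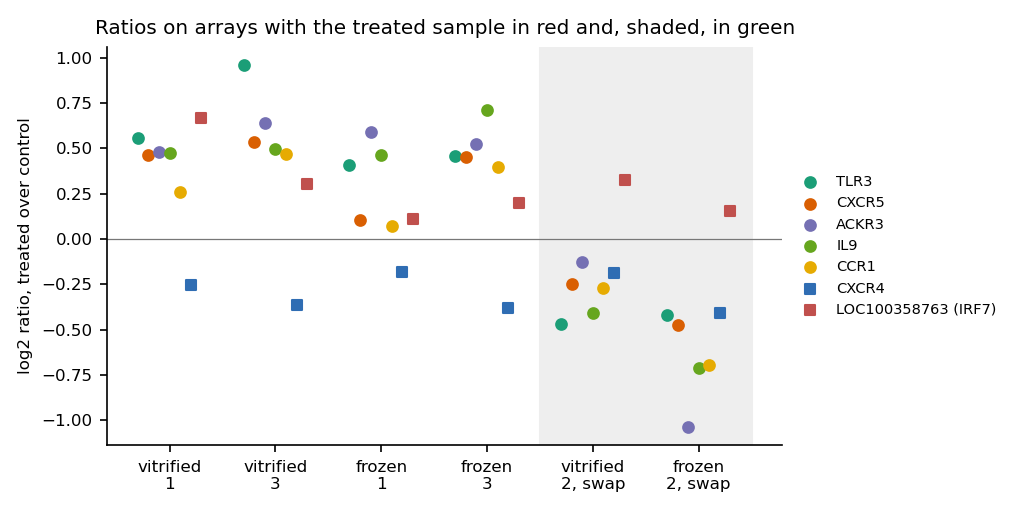
Log2 ratio of treated over control (vertical axis) of 7 genes on the 4 arrays with the treated sample in red and, shaded, the 2 arrays with it in green. TLR3, CXCR5, ACKR3, IL9 and CCR1 (circles) change sign with the dye, while CXCR4 and IRF7 (squares) keep theirs.

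Genes of the pathways around these ligands and receptors were taken from lists of symbols. Of the listed genes on the array, 1 of viral sensing and 3 interferon-stimulated genes were also members. Of 16 tested JAK-STAT genes none passed the adjusted threshold in any comparison. STAT3, the main transducer of the IL6 family, was at 0.76, 0.67 and 0.22 on the vitrified arrays and at -0.26, 0.56 and 0.44 on the frozen arrays. Its vitrified arrays were all above 0, with a fitted value of 0.60 ± 0.17 (SE, n = 3, limma adjusted p = 0.186). The medians of the list were +0.06 in vitrified and +0.03 in frozen embryos.

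Of 19 tested NF-kappaB and Toll signalling genes, 0 passed, with medians of -0.03 and -0.05. LY96, which binds lipopolysaccharide together with TLR4, was at -0.33, -0.40 and -0.29 on the vitrified arrays and at -0.30, -0.44 and -0.48 on the frozen arrays. All 6 arrays were below 0 and close together, with fitted values of -0.35 ± 0.09 (SE, limma adjusted p = 0.186) and -0.42 ± 0.09 (adjusted p = 0.139), while TLR4 itself was not detected. NFKBIA, an inhibitor of NF-kappaB that is itself induced by it, was at 0.50, 0.28 and 0.24 on the vitrified arrays and at -0.26, -0.23 and -0.44 on the frozen arrays. NFKB2, a subunit precursor of the pathway, was at 0.37, 0.61 and 0.09 and at -0.14, -0.27 and -0.55. For both genes the vitrified arrays lay above 0 and the frozen arrays below it. The differences were 0.65 ± 0.14 for NFKBIA (limma unadjusted p = 0.00222, adjusted p = 0.515) and 0.68 ± 0.17 for NFKB2 (unadjusted p = 0.00425, adjusted p = 0.589). NFKBIB, a second inhibitor, was at 0.56, 0.83 and 0.05 on the vitrified arrays and near 0 on 2 of the frozen arrays.

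In antigen processing, 9 of 9 tested genes were above 0 in vitrified embryos, against 51.3% of all probes, with a median of +0.12. In frozen embryos 3 of 9 were, against 51.7%, with a median of -0.06, and none passed. In vitrified embryos ERAP1, CANX and PSME2 were fitted at 0.05, 0.05 and 0.06. CALR had the largest fitted value, 0.42, from ratios of 0.98, -0.05 and 1.02. Its frozen ratios were 0.70, -0.98 and 0.81, so they changed sign with the dye, as did those of ERAP1. TAP1, a subunit of the peptide transporter for class I molecules, and PSMB8, a subunit of the immunoproteasome, were not detected in any channel. PSME2, a proteasome activator subunit, was at -0.03, 0.01 and 0.31 on the vitrified arrays and at -0.25, -0.41 and -0.11 on the frozen arrays, without overlap. Of 34 interferon-stimulated genes listed, 11 were on the array by symbol, 6 of those were detected in no channel and 3 were tested. SAMHD1, a restriction factor, was at -0.14, -0.25 and -0.11 on the vitrified arrays, all below 0. Of 8 viral sensing and 10 TNF family genes tested, none passed. TNFSF15 was at -0.38, -0.71 and -0.74 on the frozen arrays, all below 0, with a fitted value of -0.60 ± 0.18 (SE, limma adjusted p = 0.223).

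Markers of other cell types were summed per channel as normalised signal on the linear scale. Of 16 immune cell markers on the array, PTPRC, the antigen common to leukocytes, and CD3E, ITGAX and S100A8 were detected in no channel. Another 5, CD3D, CD4, CD8A, MS4A1 and S100A9, were detected in 12 of 12 channels. The summed signal of all 16 immune markers was 2237 to 2618 in control channels, 2633 to 2896 in vitrified and 2139 to 2569 in frozen embryos. Of the 12 tested, 11 were above 0 in vitrified embryos, against 51.3% of all probes, and 6 in frozen embryos, against 51.7%. The exception in vitrified embryos was CD4, at -0.22, -0.39 and -0.28 on the arrays. Its fitted value was -0.34 ± 0.12 (SE, limma adjusted p = 0.234). The summed signal of 5 red blood cell markers was 2908 to 11784 in control channels, 15152 to 163299 in vitrified and 4495 to 40675 in frozen embryos. The markers did not share 1 direction in vitrified embryos. The globins HBA and HBB2 were fitted at log2 values of 2.33 and 3.61 and ALAS2 at 0.75, against -0.07 for SLC4A1 and -0.0028 for EPB42. For 7 markers of uterine epithelium and its secretions the sums were 1888 to 3916 in control channels, 4495 to 7549 in vitrified and 1936 to 4622 in frozen embryos. In vitrified embryos SCGB1A1 and WFDC2 were fitted at 2.03 and 1.08. PGR, OVGP1, LCN2 and PIGR were at 0.06, 0.05, 0.04 and 0.04, and ESR1 was detected in no channel. The part of blood or uterine RNA in the values of the cytokine and MHC genes was not tested.

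Of the embryo's own lineage markers on the array by symbol, all 9 of trophectoderm and all 5 of epiblast were tested, as were 9 of 10 of endoderm, with TTR detected in no channel. APOA2, an apolipoprotein of the endoderm, was at -1.28, -0.83 and -1.15 on the frozen arrays and fell by 1.00 ± 0.12 (SE, n = 3, limma adjusted p = 0.0432), the 1 gene of all these lists that passed. The endoderm list had medians of -0.06 in vitrified and -0.82 in frozen embryos. In frozen embryos 7 of its 9 tested genes were below 0 and 2 above, namely DAB2 and AFP. DAB2 was at 1.12, 0.55 and 0.21 on the frozen arrays, with a fitted value of 0.66 ± 0.18 (SE, limma adjusted p = 0.197). AFP was fitted at 0.14. The part of the endoderm list in the frozen values of the cytokine and MHC genes was not tested.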

How the data were processed

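RNA of blastocysts was hybridised to 6 two-colour Agilent arrays. Per the file headers and the submitters' processing notes, the deposited intensity values are spot means with a median local background, before any normalisation, and the software was Agilent Feature Extraction 10.10.1.1. The deposited log10 ratio, background-subtracted and dye-normalised by that software per the file headers, served as an alternative. Flags for signals well above background are the software's own.

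From the intensities, background was corrected with normexp at an offset of 50 and loess was run within each array, giving control spots a weight of 0, in limma 3.58.1 under R 4.3.3. Replicate spots were averaged, and 30767 of 43603 probes, those well above background in 3 or more of 12 channel measurements, were tested. The fit had a coefficient per treatment and a dye term over all 6 arrays, with 3 residual and 4.53 prior degrees of freedom, followed by eBayes and Benjamini-Hochberg adjustment over all tested probes at a threshold of 0.05. No exact test was made, since with 3 samples a side its p cannot go below 0.1. The number of arrays limits the precision. The fit was tested on simulated data.

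Genes were named through the files' columns and a gene table of assembly mOryCun1.1, with a symbol for 21437 probes, several genes for 138, a gene number without a symbol for 1350 and no match for 20678. Role groups follow the descriptions, except that IL6 and IL18 were placed with the interleukins and LOC100008867 with the interferon-induced genes. The members, lists and tests were chosen with earlier results of these data known. The named genes are, per comparison and direction, the 8 largest fitted values among members with 1 direction on all 3 arrays (for the difference, the 8 largest), the 8 brightest members, genes fixed by name and, per list and comparison, called genes or the 2 smallest p. Genes that this rule takes but that are not given are not reported here. Genes named outside that rule, such as those not detected, were chosen after their values were seen. The lists covered JAK-STAT, NF-kappaB and Toll, viral sensing, interferon-stimulated, antigen processing and TNF family genes, and markers of immune cells, red blood cells, uterine epithelium, trophectoderm, epiblast and endoderm.

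Per the labels, same-numbered arrays share the control extract. Deviations from the group means correlated between them at 0.02 in replicate 1, 0.598 in replicate 2 and 0.169 in replicate 3. The ratios used for this still held the dye effect, and replicate 2 was dye-swapped in both treatments. The dye and the shared control extract therefore cannot be told apart in these correlations. The alternatives were other choices of background correction, signals, normalisation, dim-probe filter, outlier flags, dye term, replicate block, slide covariate, spread, array weights and probe per gene, a narrower member rule and leaving out each array. The narrower rule kept 79 tested members. It dropped those described with the terms enhancer, binding factor, related, kinase or associated. Probe sequences and positions are those of the array files. Promoter and protein sequences were not used here.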

Additional observations from a re-analysis of the deposited data

Results flagged for a closer look

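For CCL2, NFKBIA and NFKB2 all 3 vitrified arrays were above 0 and all 3 frozen arrays below 0. The differences between the treatments were 0.19 for CCL2 (limma unadjusted p = 0.16, adjusted p = 0.768), 0.65 for NFKBIA (adjusted p = 0.515) and 0.68 for NFKB2 (adjusted p = 0.589), and none passed the test. The treatments lay on opposite sides of 0 for 771 of 30767 tested probes (2.51%) and for 1 of 86 members (1.16%).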

How the results depend on the processing

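Across 21 alternatives, 70 of 77 named gene results kept 1 direction. Of 1456 values, 1421 kept direction and side of the threshold, 26 came to pass it, 0 ceased to pass and 9 turned direction. With array quality weights, 5 members passed in vitrified and 8 in frozen embryos, and the cause was not tested. The members' median in vitrified embryos, +0.04, was 0.071 with the scanner's log ratio, 0.020 with median centring and 0.0044 with no filter. It was 0.081 for probes detected in all 12 channels, 0.065 with array weights and 0.017 under the narrower member rule, which kept TMED5. It ranged from 0.010 to 0.051 when arrays were left out in turn. The median in frozen embryos, -0.018, was 0.026 for probes detected in all 12 channels, 0.0084 without the second frozen array and 0.0003 with no dye term, and the median difference ranged from 0.023 to 0.11. Leaving out arrays in turn gave ranges from -0.13 to 0.016 for CX3CL1 in vitrified embryos and from -0.33 to 0.075 for IL17RE in frozen embryos. For the difference between the treatments the ranges were -0.029 to 0.38 for RIGI, -0.0004 to 0.44 for ACKR3, -0.60 to 0.013 for IL4R and -0.42 to 0.057 for LOC100338822. With array weights the difference was 0.051 for LOC100338822, and with median centring it was 0.33 for IL36G. The cause of these turns was not tested. With the replicate number as a block, whose estimated correlation was -0.103, 0 members passed, and the smallest adjusted p was 0.165, 0.193 and 0.752 for the 3 comparisons. With the slide as a covariate the smallest were 0.198, 0.326 and 0.761. The difference between the treatments was then -0.26 for CKLF, against -0.45, and 0.41 for CCL27, against 0.27. The scanner's log ratio, which differs in background, dye normalisation and offset together, gave 0.93 for LOC100349667 in vitrified embryos against 0.44.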
